A study of Bos indicus with 11 samples.

Results

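The genes described here are 10 transcription factors known from the stroma and from the mesenchyme of developing organs: OSR1, OSR2, MSC, NKX6-1, FOXF1, FOXF2, HAND2, NR2F2, TWIST1 and TWIST2. They were looked up by gene symbol in a table of 24616 genes, of which 5976 have no symbol. A symbol match was found for 8 of the 10, while FOXF2 and HAND2 matched no symbol and were not analysed here. All 8 reached a mean of at least 5 normalized counts over the cows and so belonged to the 15081 genes tested, NKX6-1 only through the cows in which it was high. The genes were chosen with the values of these same cows known, so the P and NP values of the 8 are given as a description, with no p-value, and the number of them called by a test is given only beside the share of all genes called.

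The samples were endometrial biopsies from healthy, multiparous Nelore (Bos indicus) cows, 6 of them pregnant (P) and 5 non-pregnant (NP). All 11 were non-lactating, had their estrus synchronized with a prostaglandin F2α analogue and were inseminated artificially (AI), and the biopsy was cut on day 6 from the uterine horn on the side without the corpus luteum. Cows were sorted into P and NP afterwards, by the diagnosis on day 30, and those sequenced were picked for close plasma progesterone and a timely ovulation, so that both groups had received the same treatment before sampling. Each cow gave 1 library, with 9290949 to 13569085 reads on genes, and values are read counts divided by a size factor for each cow (normalized counts, in which 1 read is worth 0.784 to 1.14).

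In the uterus, epithelial cells signal to the stroma beneath them through the hedgehog ligand IHH, and the stroma answers with transcription factors such as NR2F2 (COUP-TFII) and, under progesterone, HAND2. FOXF1 is a forkhead factor and a known hedgehog target in the mesenchyme of gut and lung. OSR1 and OSR2 are odd-skipped zinc finger factors of the mesoderm that gives rise to the urogenital tract and limbs. MSC (musculin), TWIST1 and TWIST2 are basic helix-loop-helix (bHLH) factors that pair with E proteins and hold back differentiation of mesenchymal cells, and NKX6-1 is a homeodomain factor best known from pancreatic beta cells and motor neuron precursors.

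The biopsies differed in how much smooth muscle RNA they held. The gene entry that joins the smooth muscle actins ACTG2 and ACTA2 ranged from 13869 normalized counts in cow NP2810 to 215006 in cow P617, and 3 cows lay above 80000: P617, P1541 (165234) and NP638 (89878). The highest of the other 8 cows was P1753 with 72206. These 3 are called muscle-rich here, and the other 8, 4 P and 4 NP, muscle-poor. The muscle-poor P cows still held 28918 to 72206 normalized counts of this entry, and the muscle-poor NP cows 13869 to 43860. Comparing only the muscle-poor cows therefore does not make the groups equal in muscle. Cow P617 also had the least epithelial RNA, with 269 normalized counts of the epithelial adhesion gene EPCAM against 2110.0 to 4719 in the other cows, and its label is in doubt, since a list of sequencing runs names it as non-pregnant. It was kept as P, as its sample label says. The same list gives cows P1541 and P1631 one shared run number, although their values differ.

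Markers of the labelled tissue were present in every cow. Of 13 epithelial markers 11 had a positive log2 fold change of NP over P. For some of these, such as CDH1 and KRT8, the plain mean was nevertheless higher in P. The mean log2 level of the 13 was 7.45 to 11.02 in P and 9.71 to 10.26 in NP. Cow P617 alone gave the low end in P, and the next P cow, P1541, was at 9.47. All 10 stromal markers had positive fold changes, with a median log2 fold change of 0.62 and a mean level of 12.67 to 14.09 in P and 13.74 to 13.99 in NP. All 10 smooth muscle entries had negative fold changes, with a median of -1.32, and their mean level was 11.95 to 14.63 in P and 11.11 to 13.80 in NP. All 8 endothelial markers (8.79 to 10.36 in P and 9.79 to 10.64 in NP) and all 8 immune markers (6.201 to 7.36 and 6.88 to 7.87) had positive fold changes, and 3 of 4 mesothelial markers tested had negative ones (6.99 to 8.23 and 6.03 to 7.25). None of these markers passed an adjusted p of 0.1 with limma, while DESeq2 called PDGFRB, CDH5 and MSLN. The part of tissue makeup in the values below was not tested, and in a biopsy fewer cells of a type and less RNA per cell cannot be told apart.

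Of the 8 factors, 5 had an NP mean more than 2 times the P mean (OSR1, MSC, NKX6-1, FOXF1 and TWIST2), and 3 had group means near each other (OSR2, NR2F2 and TWIST1). The median log2 fold change of the 8 was 1.49, and 6 were positive, against a median of 0.0018 and 50.2% positive over all 15081 genes. With limma 0 of the 8 passed an adjusted p of 0.1, as did 0% of all genes tested (1182 genes had an unadjusted p under 0.05, and edgeR also called 0). DESeq2 on the recovered reads called 3, MSC, OSR1 and TWIST2, all higher in NP, beside 1.13% of all genes called in that direction. Because the genes were selected on this contrast, and NKX6-1 passed the filter only through the cows in which it was high, these counts are no test of the 8 and nothing is read from them.

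**Figure D1:**
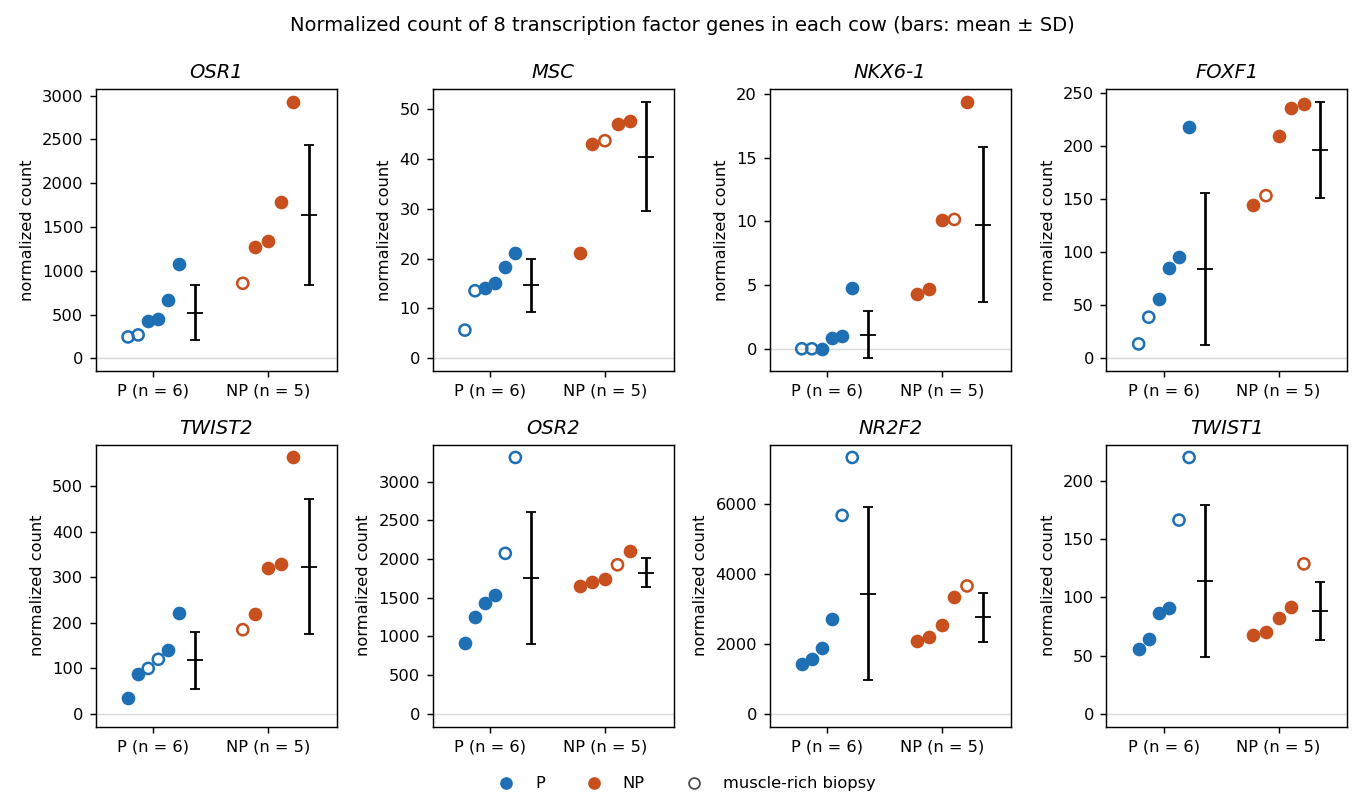
Normalized counts of the 8 factors in each cow, P and NP side by side, with open points for the 3 muscle-rich cows. OSR1, MSC, NKX6-1, FOXF1 and TWIST2 lay mostly higher in NP, while OSR2, NR2F2 and TWIST1 were highest in the muscle-rich P cow P617.

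OSR1 (ENSBTAG00000008113) ranged in the P cows from 244 through a median of 435 to 1075 normalized counts. In the NP cows it was 1788 in NP238, 856.3 in NP638, 1338 in NP856, 1271 in NP2541 and 2928 in NP2810. So 4 of the 5 NP cows lay above every P cow, and the groups overlapped only in that the muscle-rich cow NP638 lay below cow P904. Cow P904 had the lowest ACTG2 and ACTA2 entry of the P cows, at 28918, and OSR1 in the next P cow, P2396, was 671. The mean was 521 ± 312 (SD, n = 6) in P and 1636 ± 794 (SD, n = 5) in NP, a ratio of 3.14, and the log2 fold change of limma on log2(normalized count + 1) was 1.72 (SE 0.40). Among the muscle-poor cows the groups did not overlap, with 425 to 1075 in P and 1271 to 2928 in NP. With cow P617 counted as NP the log2 fold change was 1.10.

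OSR2 (ENSBTAG00000013213), its closest relative, did not share this difference in level. The P cows ranged from 911 through 1483 to 3312 normalized counts, and the NP cows had 1646 in NP238, 1926 in NP638, 1747 in NP856, 1703 in NP2541 and 2108 in NP2810. The NP cows therefore sat in a narrow band inside the wide range of the P cows. The mean was 1753.1 ± 853 (SD, n = 6) in P and 1826 ± 189 (SD, n = 5) in NP, and the log2 fold change was 0.18 (SE 0.27). In the muscle-poor cows, however, the 4 NP cows lay above the 4 P cows, which ranged from 911 to 1530 against 1646 to 2108, with a ratio of means of 1.403.

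Within a cow, the normalized count of OSR1 divided by that of OSR2 was 0.375 ± 0.260 (SD, n = 6) in P and 0.886 ± 0.361 (SD, n = 5) in NP. Gene lengths were not applied, so the ratio serves to compare cows and does not say which gene was more abundant. It was 0.0737 to 0.445 in the 3 muscle-rich cows. In the muscle-poor cows it was 0.278 to 0.749 in P and 0.746 to 1.39 in NP, so that the highest P cow lay just above the lowest NP cow.

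MSC (ENSBTAG00000005404), a bHLH repressor, was a gene of low counts, with 88 reads in all P cows and 203 in all NP cows. The P cows ranged from 5.65 through 14.6 to 21.1 normalized counts. The NP cows had 47.5 in NP238, 43.6 in NP638, 43.0 in NP856, 21.2 in NP2541 and 46.9 in NP2810. MSC was the only one of the 8 in which the NP cows all lay above the P cows, an order that 0.855% of all genes tested showed. The margin was less than the worth of 1 read, between NP2541 and P904, while the other 4 NP cows were near each other. The mean was 14.6 ± 5.24 (SD, n = 6) in P and 40.4 ± 10.95 (SD, n = 5) in NP, and the log2 fold change was 1.44 (SE 0.36). Cow P617, whose label is in doubt, had the lowest value of all, and with it counted as NP the groups overlapped and the log2 fold change was 0.79.

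NKX6-1 (ENSBTAG00000002518) had the fewest reads, 7 over the P cows and 49 over the NP cows. It was at 0 in P617, P1541 and P1631, at 0.875 in P2396, at 1.01 in P1753 and at 4.79 normalized counts in P904. In the NP cows it was 10.1 in NP238, 10.1 in NP638, 4.30 in NP856, 4.70 in NP2541 and 19.4 in NP2810. Every NP cow had reads, and the groups overlapped through cow P904 alone. The mean was 1.11 ± 1.86 (SD, n = 6) in P and 9.73 ± 6.08 (SD, n = 5) in NP. At so few reads the log2 fold change, 2.50 (SE 0.59), depended on the pseudocount, being 1.22 with a pseudocount of 5 and 3.08 with 0.5.

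FOXF1 (ENSBTAG00000000009), the hedgehog target, was lowest in the muscle-rich P cows. The P cows had 13.6 normalized counts in P617, 38.7 in P1541, 56.0 in P1631, 84.9 in P2396, 95.6 in P1753 and 217 in P904. The NP cows had 145 in NP238, 153 in NP638, 236 in NP856, 209 in NP2541 and 239.5 in NP2810. Cow P904 lay among the NP cows, and the other 5 P cows lay below all of them. The mean was 84.4 ± 71.8 (SD, n = 6) in P and 196 ± 45.02 (SD, n = 5) in NP, and the log2 fold change was 1.63 (SE 0.55). It came to 0.89 with the smooth muscle score as a covariate and to 0.59 with cow P617 counted as NP.

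TWIST2 (ENSBTAG00000021444) ranged in P from 35.4 through 109.7 to 220.3 normalized counts, the highest again in cow P904. The NP cows had 319.6 in NP238, 185 in NP638, 329 in NP856, 219.6 in NP2541 and 563 in NP2810. Of these, 3 lay above every P cow. The mean was 117 ± 61.7 (SD, n = 6) in P and 323 ± 148 (SD, n = 5) in NP, and the log2 fold change was 1.54 (SE 0.42).

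TWIST1 (ENSBTAG00000046922) did not show this pattern. The P cows ranged from 56.0 through 88.8 to 220.3 normalized counts, and the NP cows had 67.8 in NP238, 129 in NP638, 69.9 in NP856, 82.3 in NP2541 and 91.7 in NP2810. The 3 muscle-rich cows, at 129 to 220.3, lay above the other 8, at 56.0 to 91.7. The mean was 114 ± 65.1 (SD, n = 6) in P and 88.1 ± 24.8 (SD, n = 5) in NP, with a log2 fold change of -0.23 (SE 0.36), and the ratio of means in the muscle-poor cows was 1.05. TWIST1 and TWIST2 share near-identical stretches, and how the counting split such reads is not given in the sources used here.

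The count of TWIST2 over that of TWIST1 within a cow was 1.20 ± 0.749 (SD, n = 6) in P and 3.93 ± 1.86 (SD, n = 5) in NP. Among the muscle-poor cows the ranges were apart, 0.633 to 2.42 in P and 2.67 to 6.13 in NP. The muscle-rich cows, P and NP alike, lay at 0.544 to 1.43.

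**Figure D2:**
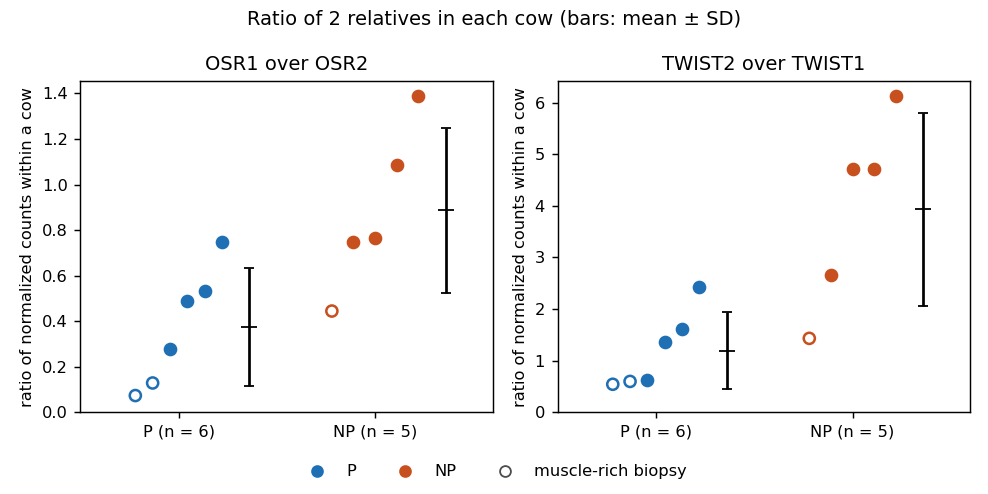
Within-cow ratios of OSR1 to OSR2 and of TWIST2 to TWIST1 normalized counts in P and NP cows, with open points for muscle-rich cows. The means were 0.375 and 0.886 for OSR1 over OSR2 and 1.20 and 3.93 for TWIST2 over TWIST1, and the group ranges overlapped in both.

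NR2F2 (ENSBTAG00000018007), the nuclear receptor of the uterine stroma, was highest in the 3 muscle-rich cows. The P cows ranged from 1418 through 2307 to 7331 normalized counts. The NP cows had 2199.9 in NP238, 3657 in NP638, 2093 in NP856, 2534 in NP2541 and 3344 in NP2810. The muscle-rich cows, at 3657 to 7331, lay above all the others, at 1418 to 3344. The mean was 3433 ± 2477 (SD, n = 6) in P and 2766 ± 699 (SD, n = 5) in NP, with a log2 fold change of -0.05 (SE 0.42), and in the muscle-poor cows the ratio of means was 1.34 in favour of NP.

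Set against muscle content, NR2F2 and TWIST1 were the 2 of 8 factors with all 3 muscle-rich cows above the other 8, beside 7.33% of all genes tested, and 0 of 8 had them below, beside 3.92%. These 3 cows lay above the other 8 in 9 of 10 smooth muscle entries and 3 of 10 stromal markers. The 9 include the ACTG2 and ACTA2 entry by which the 3 cows were picked, so its order was fixed in advance. The 3 cows lay below the other 8 in 6 of 13 epithelial and 2 of 8 immune markers. Which part of the tissue NR2F2 and TWIST1 followed was not tested. With the muscle-rich cows left out, 3 of 8 (OSR1, OSR2 and MSC) had the 4 NP cows above the 4 P cows, beside 3.28% of all genes. In the same cows the mean log2 level of the 10 stromal markers had this order too, at 12.67 to 13.39 in P and 13.74 to 13.99 in NP. The part of stromal content in the order of the 3 factors was not tested. With the smooth muscle score as a covariate the log2 fold change was 0.99 for OSR1, 1.05 for MSC, 1.98 for NKX6-1 and 1.26 for TWIST2, and it was 0.49 for OSR2, 0.49 for NR2F2 and 0.29 for TWIST1.

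**Figure D3:**
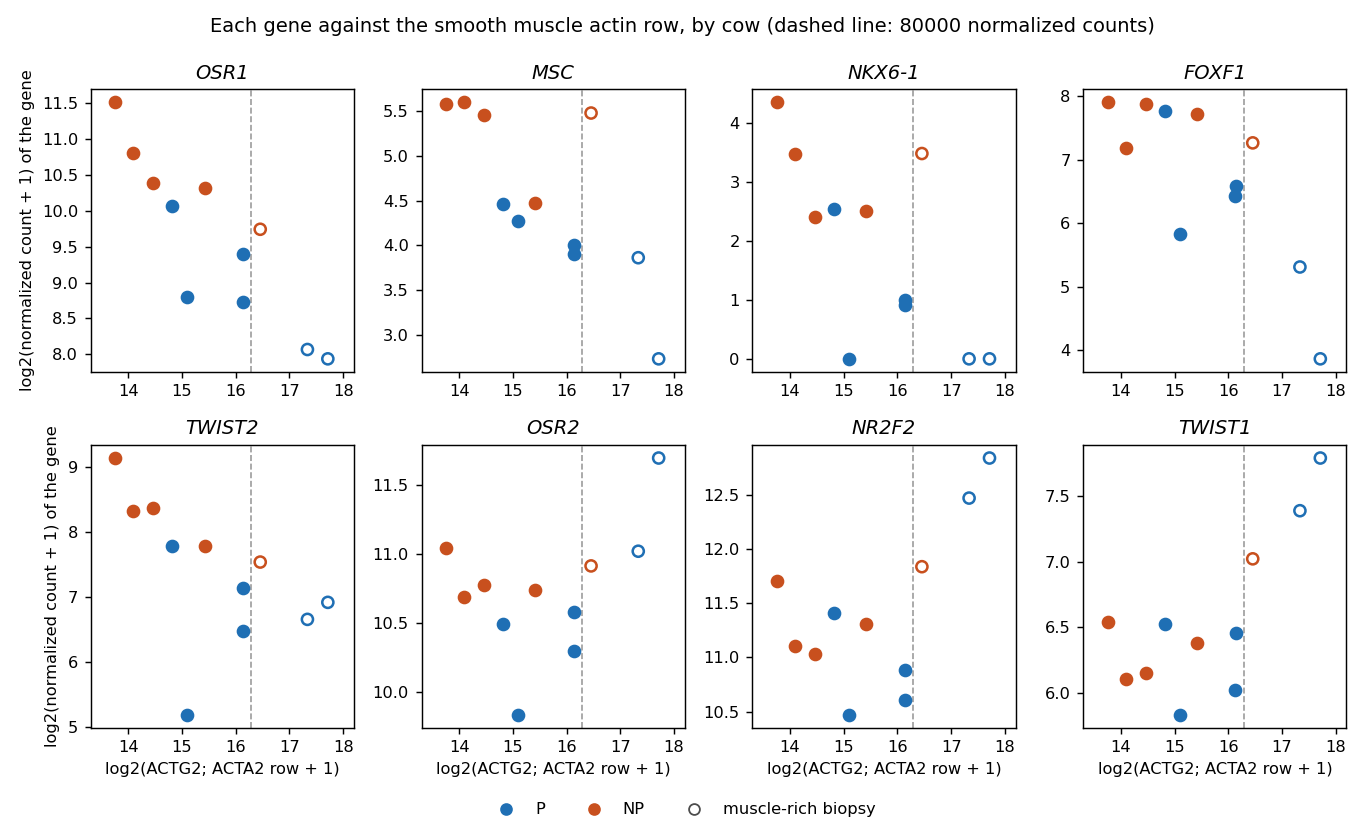
The log2 level of each factor against the log2 level of the joint ACTG2 and ACTA2 entry in each cow, with a dashed line at 80000 normalized counts. NR2F2 and TWIST1 were highest in the 3 muscle-rich cows to the right of the line.

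**Figure D4:**
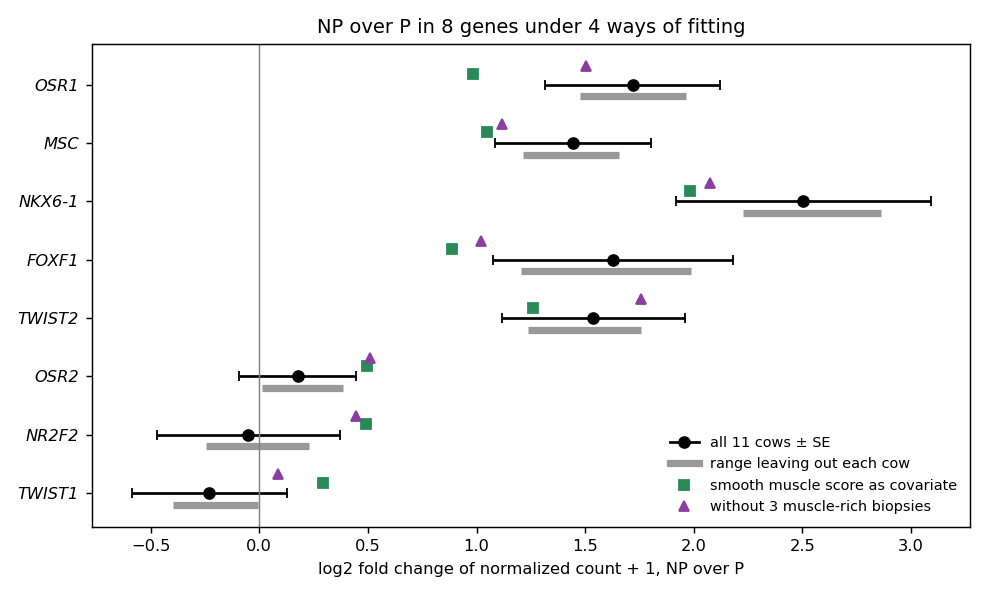
Log2 fold changes (NP over P) of the 8 factors on the log2(normalized count + 1) scale: black points with bars give all 11 cows ± SE, grey bands the range when each cow is left out, squares the fit with the smooth muscle score and triangles the fit without the 3 muscle-rich cows. OSR1, MSC, NKX6-1, FOXF1 and TWIST2 lay above 0 in each of these, while NR2F2 and TWIST1 were below 0 over all cows and above 0 at the squares and triangles.

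Pairs of factors were also compared over the 11 cows, in the 2 sets already split by the ratio of their group means, so that r over P and NP cows together in part restates that split. Within OSR1, MSC, NKX6-1, FOXF1 and TWIST2 the 10 pairs had Pearson's r of 0.65 to 0.92, and within OSR2, NR2F2 and TWIST1 the 3 pairs had 0.85 to 0.94. Between the sets r was -0.59 to 0.43, with 11 of 15 pairs negative, while by rank (Spearman's rho) it was -0.33 to 0.35, with 7 of 15 negative. In the 8 muscle-poor cows all 28 pairs were positive, at 0.13 to 0.97. These are descriptions over cows, and within a cow the values of a pair come from the same library and size factor.

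**Figure D5:**
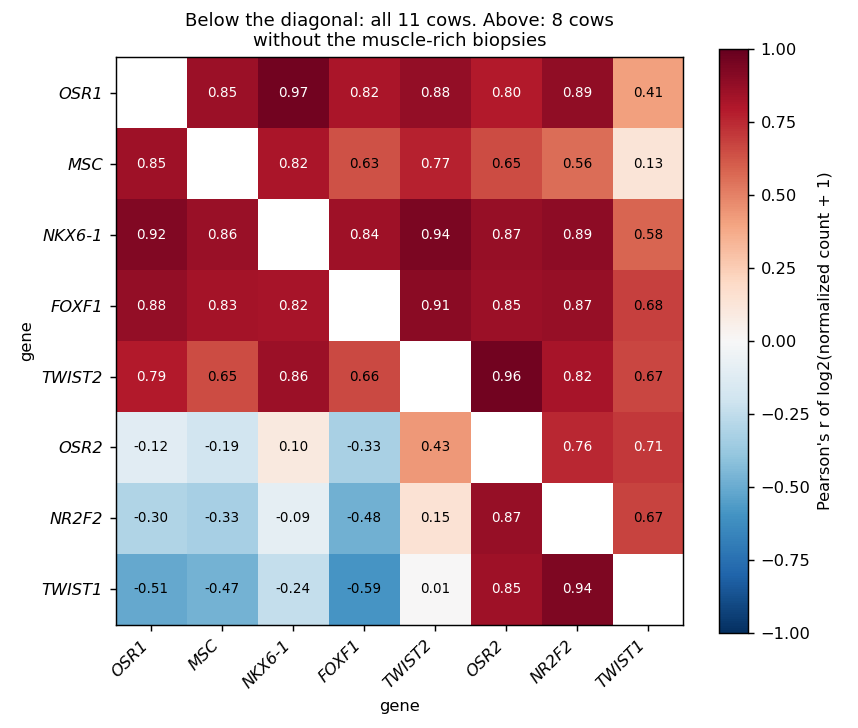
Pearson's r of log2 levels for each pair of factors, over the 11 cows and over the 8 muscle-poor cows. The negative values between the sets over all cows, down to -0.59, were positive over the muscle-poor cows.

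The genes whose levels followed each factor most closely over the 11 cows were picked by Pearson's r alone (entries whose symbol is only a Bt number are given by their Ensembl identifier). They are the highest among 15081 genes over few cows that also differ in muscle and group. A high r therefore comes in part from the picking, and none was tested. For OSR1 they were APOE, an apolipoprotein, at 0.988, APBB1IP at 0.977 and RDH10, a retinol dehydrogenase, at 0.977. FOXF1 was followed by the Bt entry ENSBTAG00000010452 at 0.992, by the nuclear receptor NR5A2 at 0.991 and by LRRC32 at 0.988, and TWIST2 by EGFLAM at 0.970, the joint entry LOC784147; STEAP1 at 0.969 and ANXA9 at 0.964. For NKX6-1 they were the matrix glycoprotein EMILIN2 at 0.968, ANGPT4 at 0.955 and the Bt entry ENSBTAG00000012615 at 0.948, and for MSC an entry with no symbol (ENSBTAG00000004994) at 0.933, the Bt entry ENSBTAG00000008101 at 0.922 and EFNA5 at 0.920. OSR2 was followed by the Bt entry ENSBTAG00000006366 at 0.991, by LOXL1, which crosslinks elastin, at 0.977 and by FGD1 at 0.969. For NR2F2 they were an entry with no symbol (ENSBTAG00000047354) at 0.984, ARMCX1 at 0.979 and LIX1L at 0.974, and for TWIST1 they were MSN (moesin) at 0.981, GNG11 at 0.980 and AKAP2 at 0.979.

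Of the hedgehog pathway and the stromal relay genes, 23 were listed, and 20 entries were tested, with PTCH1 entered under both ENSBTAG00000009903 and ENSBTAG00000048213. SHH fell below the filter on the mean, and WNT4, FGF9 and FGF10 matched no symbol. With limma 0 passed an adjusted p of 0.1, 2 had an unadjusted p under 0.05, both higher in NP, and DESeq2 called 0. Over all genes tested 7.84% had an unadjusted p under 0.05, 828 of them higher in NP and 354 higher in P. The median log2 fold change was 0.18. FGF1, a fibroblast growth factor, was at 1.13 to 73.8 normalized counts in P and 97.4 to 212 in NP, with a log2 fold change of 2.44 (SE 0.79) and an adjusted p of 0.434 with limma. The lowest P cow was P617, whose label is in doubt, and the next was P1631 at 22.8. SUFU, an inhibitor of the pathway, had 87.6 ± 23.4 (SD, n = 6) in P and 130.4 ± 26.7 (SD, n = 5) in NP (limma adjusted p = 0.517), and the co-receptor CDON 739.7 ± 208 and 535 ± 206 (limma adjusted p = 0.738). The ligand IHH, named after its values were seen, stood at 9.04 in cow P617 and at 2519 to 6387 in the other cows.

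Among 7 listed bHLH partners, the E proteins and ID proteins that bind MSC and TWIST factors or compete for their partners, 6 were tested and 0 passed with limma, 1 having an unadjusted p under 0.05, beside 7.84% of all genes. That gene was the E protein TCF12, at 2348 to 4287 normalized counts in P and 4636 to 8022 in NP, with no overlap, an order that 0.855% of all genes showed. Its log2 fold change was 0.78 (SE 0.20), with an adjusted p of 0.293 with limma and 0.0283 with DESeq2. Cow P617, whose label is in doubt, had 2761 of TCF12, so with it counted as NP the groups would overlap. ID3 had 846 ± 337 (SD, n = 6) in P and 1199 ± 259 (SD, n = 5) in NP (limma adjusted p = 0.732), and TCF4 271 ± 73.1 and 345 ± 71.5 (limma adjusted p = 0.745).

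Of 30 other mesenchymal transcription factors, 17 were tested, 0 passed with limma or DESeq2, and 4 had an unadjusted p under 0.05, all higher in NP, beside 7.84% of all genes in either direction. The median log2 fold change was 0.30. SNAI1, a repressor known from epithelial to mesenchymal transition, had 34.0 ± 24.4 (SD, n = 6) in P and 82.8 ± 15.7 (SD, n = 5) in NP (limma adjusted p = 0.373). EBF1 had 90.0 ± 31.7 and 139 ± 28.6, and FOXL2 17.7 ± 15.98 and 54.2 ± 16.4 (limma adjusted p = 0.503 for each).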

How the data were processed

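RNA-Seq was made from endometrial biopsies of 11 cows, each cow being 1 replicate. Per the labels, the authors used CASAVA 1.8.2, Bowtie2 2.1.0, HTSeq 0.5.4p2, DESeq2 1.12.1 and the UMD3.1 assembly. The deposited table holds a signal at or above 0, read counts per gene divided by size factors. The gene annotation and the use of strand are not given in the sources used here. All values were whole multiples of the worth of 1 read (within 0.01 read), so reads were recovered.

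Groups followed the sample labels. NP was compared with P by limma 3.58.1 (moderated with an intensity trend, R 4.3.3) on log2(value + 1), for 15081 genes averaging 5 or more, with Benjamini-Hochberg adjustment at 0.1. Alternatives included edgeR 4.0.16 and DESeq2 1.42.0 on recovered reads. Scripts were tested on simulated data. P-values measure the spread among cows, and counting error adds to it for genes of few reads.

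The factors, the 3 gene lists and the markers were chosen with earlier results of these data known. Named genes were all listed factors, the 3 genes of each list with the smallest unadjusted p, and the 3 genes with the highest correlation with each factor. Genome coordinates and sequences are not given.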

Additional observations from a re-analysis of the deposited data

Results flagged for a closer look

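Each of 20 groups of values (8 factors and 2 ratios, in P and in NP) was examined for a cow far from the others, and 2 had one. The cutoff gives about 1 in 20 by chance only for independent, normally distributed values. Counts and ratios from the same cows are not such values, so no chance rate is known here. MSC in cow NP2541, at 21.2 normalized counts, was the lowest of the NP cows by a wide gap. NKX6-1 in cow P904, at 4.79 normalized counts, was the highest of the P cows by a wide gap.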

How the results depend on the processing

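The number of genes called between NP and P was 0 with limma and 201 with DESeq2, 127 with the epithelial score as a covariate and 4561 with the stromal score as a covariate (2377 higher in NP and 2184 higher in P), an alternative chosen after seeing the data. The cause was not tested. Leaving out each cow in turn gave 0 to 171 genes, 171 only without cow P904. OSR1, MSC, FOXF1 and TWIST2 had a positive log2 fold change under all 25 alternatives, and NKX6-1 under the 24 in which it was tested. NR2F2 was positive under 8 of 25 and TWIST1 under 3 of 25, and OSR2 was negative under 1 of 25. With the smooth muscle score NR2F2 was at 0.49 and TWIST1 at 0.29, and with the stromal score OSR2 was at -0.35, NR2F2 at -0.93 and TWIST1 at -0.93. Depth limits NKX6-1 most, with 7 reads over the P cows.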
